A study of Mus musculus with 18 samples.

Results

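The immediate-early transcription factor genes Fos, Fosb, Jun, Junb, Jund, Egr1, Atf3, Ier2, Klf2 and Klf4 were followed in Thy1+ cells sorted from mouse hearts. These 10 genes were chosen by name and found by Ensembl identifier among the 53342 genes of the deposited count tables. Cells were gated on Thy1, a glycoprotein on the surface of cardiac fibroblasts and some other cells, and the labels name the sorted population Thy1+ HE in one place and Thy1+HE- in another without spelling out HE. Mice of the inbred strains C57BL/6, C3H/HeJ and KK/HlJ carried implanted pumps that gave saline (sham) or ISO (isoproterenol, which activates beta-adrenergic receptors), with ISO hearts collected 14 or 21 days later. Each of the 9 groups, sham, ISO day 14 and ISO day 21 in each strain, had 2 libraries. Sham labels carry no day, so the sham libraries of a strain served both days, and results at day 14 and day 21 share them. No transgene or deleted gene is named for any group, and the sources used here give neither the age of the mice nor any pooling. Whether the 2 libraries of a group came from separate mice is not labelled, so each p-value rests on a spread between libraries that may be technical.

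Immediate-early genes are transcribed within minutes of a stimulus without need of new protein synthesis, and their messenger RNAs decay quickly. The Fos and Jun families and Atf3 encode leucine zipper proteins that pair to form the AP-1 factor and its relatives, Egr1, Klf2 and Klf4 encode zinc finger factors, and Ier2 encodes a small nuclear regulator. Growth factors, stretch, stress kinases and adrenergic signals induce these genes, and so can the enzymatic release of cells from a tissue, which makes them a known readout of dissociation in sorted cells. The cells here were sorted into lysis reagent after release from the heart, and no library of undissociated heart was analysed here, so induction in the animal and induction during isolation cannot be told apart.

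Promoters from the RefSeq table (build GRCm38.p6, which is mm10) were matched for 8 of the 10 genes. Those of Egr1 and Ier2 were not searched. The windows span 250 bases before to 50 bases after the RefSeq start. The 5 printed here belong to genes whose levels the results below turn on. Capitals mark matches on either strand to TGACG, which opens the cAMP response element TGACGTCA, and to the MEF2 site, searched by its usual pattern. In order, the windows are chr12:85473640-85473939 on the plus strand, chr4:95052173-95052472 on the minus strand, chr7:19309996-19310295 on the minus strand, chr8:84978699-84978998 on the minus strand and chr8:72318812-72319111 on the plus strand.
Fos: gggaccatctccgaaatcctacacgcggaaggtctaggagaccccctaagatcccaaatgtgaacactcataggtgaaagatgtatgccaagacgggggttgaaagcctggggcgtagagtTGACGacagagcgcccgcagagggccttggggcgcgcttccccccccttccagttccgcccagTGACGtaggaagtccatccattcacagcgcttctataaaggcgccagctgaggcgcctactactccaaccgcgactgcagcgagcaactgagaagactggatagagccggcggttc
Jun: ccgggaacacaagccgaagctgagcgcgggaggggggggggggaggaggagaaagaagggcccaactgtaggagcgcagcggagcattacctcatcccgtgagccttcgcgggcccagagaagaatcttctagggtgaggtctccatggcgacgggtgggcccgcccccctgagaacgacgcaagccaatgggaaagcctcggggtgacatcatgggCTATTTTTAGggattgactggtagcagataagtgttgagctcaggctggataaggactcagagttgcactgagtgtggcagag
Fosb: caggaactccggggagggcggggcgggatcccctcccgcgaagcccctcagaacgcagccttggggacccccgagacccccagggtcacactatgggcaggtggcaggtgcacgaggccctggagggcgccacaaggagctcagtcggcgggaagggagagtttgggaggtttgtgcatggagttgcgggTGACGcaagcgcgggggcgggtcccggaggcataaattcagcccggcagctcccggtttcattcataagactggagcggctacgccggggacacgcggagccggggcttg
Junb: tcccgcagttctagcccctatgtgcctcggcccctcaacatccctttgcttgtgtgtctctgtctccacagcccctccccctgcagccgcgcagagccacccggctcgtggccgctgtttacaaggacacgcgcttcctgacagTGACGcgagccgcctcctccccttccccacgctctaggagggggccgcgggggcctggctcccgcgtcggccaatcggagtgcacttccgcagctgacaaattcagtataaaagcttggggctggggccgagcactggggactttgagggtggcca
Klf2: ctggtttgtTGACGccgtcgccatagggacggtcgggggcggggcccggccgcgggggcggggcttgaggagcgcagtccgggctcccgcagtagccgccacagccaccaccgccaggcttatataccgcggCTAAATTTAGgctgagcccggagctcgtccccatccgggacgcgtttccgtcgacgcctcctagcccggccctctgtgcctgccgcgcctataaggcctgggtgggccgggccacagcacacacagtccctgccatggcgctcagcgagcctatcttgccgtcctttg
TGACG occurred in 6 of the 8 windows (Fos, Fosb, Junb, Atf3, Klf2 and Klf4), against 20.8% of the 32851 promoters in the table. The MEF2 pattern occurred in 3 (Jun, Klf2 and Atf3), against 3.19% of promoters, and its first base lay at position -33 from the start in Jun and -118 in Klf2. The GC box GGGCGG occurred in 6 of 8 (35.7% of promoters), the EGR1 site GCGNGGGCG, which can overlap it, in 3 (5.55%), the KLF motif CACCC in 6 (57.5%), and TATAAA in 2, Fos and Junb (13.6%). All motifs were searched on both strands. The whole element TGACGTCA, the AP-1 site TGACTCA and the CArG box, whose pattern stands for the binding site of serum response factor, matched none of the 8 windows and 1.79%, 5.2% and 1.63% of all promoters. Sites farther upstream, or with letters that depart from these patterns, were not searched, so a window without a match does not show that a gene lacks such a site. These matches describe letters in the windows and were not tied to the levels below. The Jund window ends before the start of the Jund gene in the annotation used for the counts, and the Atf3 window lies inside the annotated gene.

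Total counts ran from 7230741 to 26280685 per library. Over genes, the 2 libraries of a group had an r of 0.832 to 0.941 in log2 CPM, and their counts differed beyond sampling noise (chi-square of 58.98 to 158.5 per degree of freedom). Replicate 1 of C3H/HeJ sham, KK/HlJ sham, KK/HlJ ISO day 14 and KK/HlJ ISO day 21 stood apart, with the 4 lowest median correlations to the other libraries (0.811 to 0.847), and values without these 4 are given beside the results they move. The fibroblast genes Pdgfra (246.5 to 1034 CPM), Tcf21 (258.4 to 504.4 CPM) and Thy1 (134.9 to 481.4 CPM) were present in every library. Summed over 12 markers each, fibroblast markers ran from 94410 to 138600 CPM, endothelial markers from 516.3 to 1664 CPM, pericyte and smooth muscle markers from 1410 to 6943 CPM, cardiomyocyte markers from 66.52 to 406.7 CPM, macrophage markers from 7.24 to 228.8 CPM (Itgam at 0 throughout) and lymphocyte markers from 0 to 9.19 CPM (Cd3g and Cd8a at 0 throughout). Schwann cell markers (10 genes) ran from 106 to 251.4 CPM and epicardial markers (8 genes) from 109.8 to 543.8 CPM. Genes of the mitochondrial genome were listed at 0 in every library.

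All 10 genes were abundant in every library. Together they took 0.980% of all reads in C57BL/6 ISO day 21 replicate 1 and 2.02% in C57BL/6 sham replicate 1, the lowest and highest shares. No gene had fewer than 1781 reads in any library, so counting error was small beside the spread between replicates. Levels are read counts scaled to edgeR's effective library sizes (CPM). Divided by the length of the gene's merged exons, each gene's mean lay above that of at least 98.31% of the 15762 genes tested.

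Among the AP-1 genes, Junb, a Jun protein that often restrains Jun, had the highest level per length, 1066 ± 268 CPM per kb (SD, n = 18 libraries). Fos, the dimer partner of Jun proteins, followed at 767 ± 354 CPM per kb and Jund, the most constitutive Jun gene, at 683 ± 210 CPM per kb. Junb was above Fos in 13 of 18 libraries and Fos above Jund in 9 of 18, so Fos and Jund had no stable order. Atf3, a stress-induced repressor that pairs with Jun proteins, stood at 520 ± 129 CPM per kb, Fosb, a close relative of Fos, at 415 ± 144 and Jun at 334 ± 111. Egr1, a zinc finger factor induced by growth signals, stood at 560 ± 128 CPM per kb. Klf2, the flow-induced Krüppel-like factor known from endothelium, stood at 444 ± 171 CPM per kb and Ier2 at 366 ± 130. Klf4, a factor of cell identity and of smooth muscle switching, was lowest at 163 ± 94.1 CPM per kb and was below Jun, the next in order, in 16 of 18 libraries. For Jun over Klf4 the mean log2 ratio, 1.16 ± 0.90 (SD, n = 18), exceeded its spread, while for the 8 other pairs of neighbours the SD was larger than the mean. With the longest transcript in place of merged exons, Fosb moved from place 7 to place 3.

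Klf4 and Fos varied most. Klf4 ran from 156.3 CPM in C3H/HeJ sham replicate 2 to 1237 CPM in C57BL/6 ISO day 14 replicate 1, a 7.91-fold range, and Fos from 678.7 to 3364 CPM, a 4.96-fold range. Fosb ran from 964.3 to 4737 CPM, Jun from 461.6 to 1770 CPM, Klf2 from 463.3 to 1722 CPM, Ier2 from 311.9 to 1090 CPM and Jund from 546.8 to 1895 CPM. Egr1 varied least, from 1471 to 3439 CPM, and Junb (1394 to 3682 CPM) and Atf3 (612.6 to 1595 CPM) were close to it. In C57BL/6 ISO day 21 replicate 1, Fosb, Junb, Jund and Egr1 each had their lowest level of all 18 libraries. KK/HlJ sham replicate 1 held the highest levels of Junb, Jund, Ier2 and Klf2 and at the same time only 983 CPM of Fos.

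**Figure D1:**
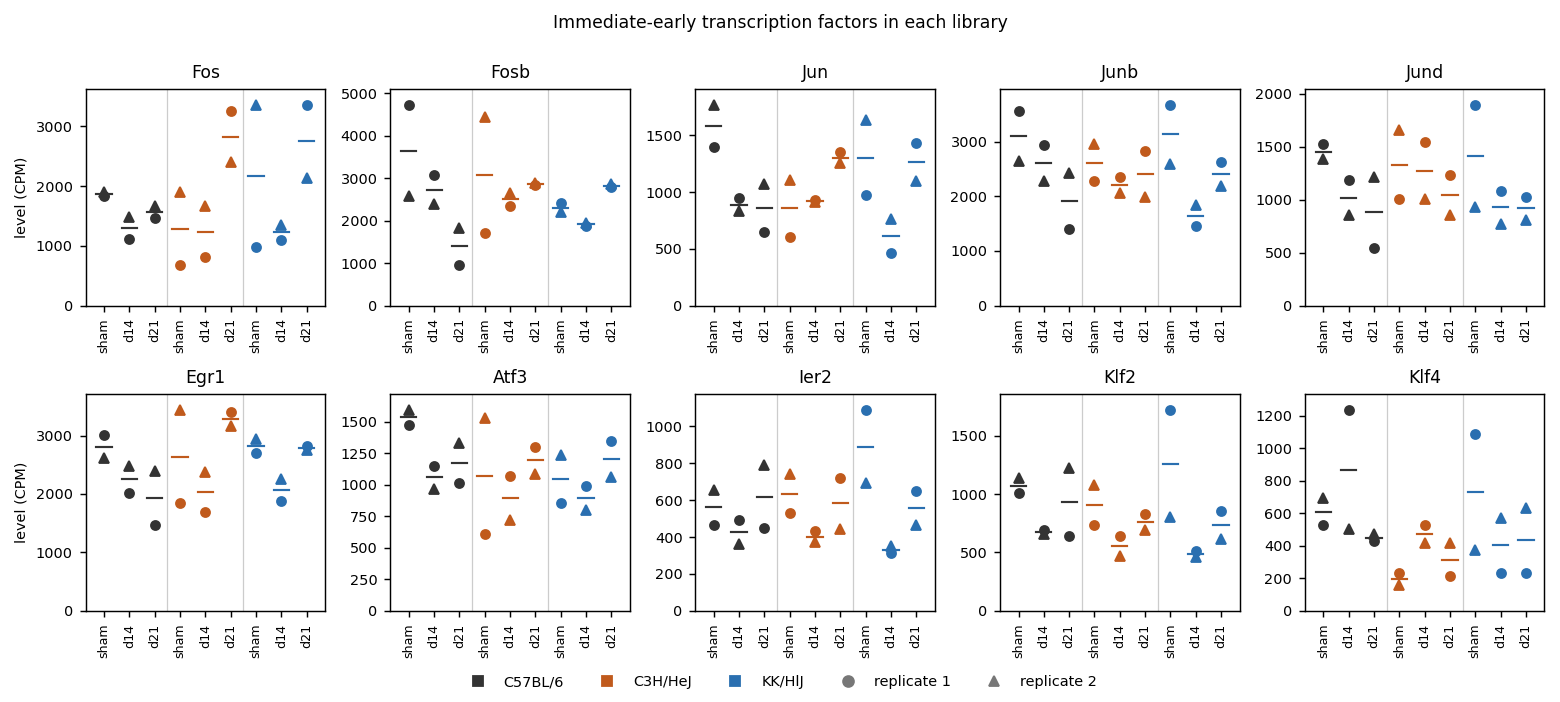
Level of each of the 10 genes in CPM (vertical axes, each from 0) in the 9 groups, with circles for replicate 1, triangles for replicate 2, bars for the mean of both and colours for the strains. Klf2 lies below both sham libraries of its strain in all 6 ISO day 14 libraries, while the 2 sham libraries of KK/HlJ and of C3H/HeJ lie far apart for several genes, such as Fos at 983 and 3358 CPM in KK/HlJ.

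At day 14 of ISO, 9 of the 10 genes had a mean log2 fold change below 0 against sham over the 3 strains (48.4% of all tested genes did), and the median over the 10 was -0.43, against 0.02 over all genes tested. None passed edgeR's quasi-likelihood test at an adjusted p under 0.05, as 0.0381% of tested genes did. At an unadjusted p under 0.05 there were 4 genes, all lower, Klf2, Ier2, Jun and Junb, against 2.39% of tested genes in that direction. DESeq2 called Klf2 and Ier2 (0.576% of the genes it tested), edgeR without the filter on low counts the same 2 (0.286%), and limma voom none of the 10. Without the 4 libraries that stood apart, 7 of the 10 were lower and Klf4 higher at an unadjusted p under 0.05 (11.0% of tested genes in either direction), with a median of -0.57 and none called. With offsets for length and GC content, 3 were lower at that p, Klf2, Ier2 and Jun (5.41%), with a median of -0.24 and none called. The sums of endothelial markers ran from 551.2 to 927.9 CPM in sham and from 516.3 to 1060 CPM at day 14, and those of pericyte and smooth muscle markers from 2017 to 6943 and from 1888 to 5850 CPM. The part of these cells in the levels was not tested, and in bulk libraries fewer cells of a type and less RNA per cell cannot be told apart.

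Klf2 stood lower at day 14 in every strain. In C57BL/6 it stood at 1010 and 1136 CPM in sham and 690.5 and 658.1 CPM at day 14. In C3H/HeJ it stood at 738.9 and 1081 CPM in sham and 642.3 and 465.4 CPM at day 14. In KK/HlJ it stood at 1722 and 801.8 CPM in sham and 508.7 and 463.3 CPM at day 14. All 6 ISO day 14 libraries were thus below both sham libraries of their strain, which held for 0.711% of tested genes. The mean log2 fold change was -0.92 (SE 0.214; edgeR adjusted p = 0.156). The adjusted p was 0.00704 by DESeq2, 0.00308 without the filter on low counts and 0.0227 without KK/HlJ sham replicate 2, and up to 0.655 over the alternatives. Without the 4 libraries that stood apart the log2 fold change was -0.81, and with offsets for gene length and GC content -0.61. Under these offsets the C3H/HeJ value of Klf2 shrank from -0.72 to -0.19. The KK/HlJ value went from -1.38 to -1.15 and the C57BL/6 value from -0.67 to -0.51.

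Ier2 followed the same course. In C57BL/6 it stood at 466.3 and 654.9 CPM in sham and 491.4 and 359.9 CPM at day 14. In C3H/HeJ it stood at 530.2 and 739.6 CPM in sham and 433.9 and 370.7 CPM at day 14, and in KK/HlJ at 1090 and 692.1 CPM in sham and 311.9 and 351.7 CPM at day 14. Of the 6 ISO day 14 libraries, 5 were below both sham libraries of their strain (at least 5 in 3.81% of tested genes), and C57BL/6 replicate 1 lay between them. The mean log2 fold change was -0.83 (SE 0.208; edgeR adjusted p = 0.246). DESeq2 gave an adjusted p of 0.0153 and the test without the filter on low counts 0.0245, with values up to 0.881 over the alternatives. Its log2 fold change was -0.75 without the 4 libraries that stood apart and -0.48 with offsets for length and GC content. Under these offsets the C3H/HeJ value of Ier2 shrank from -0.66 to -0.09. The KK/HlJ value went from -1.43 to -1.14 and the C57BL/6 value from -0.40 to -0.22.

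Jun had a mean log2 fold change of -0.61 at day 14 (SE 0.207; edgeR adjusted p = 0.724), with -1.09 in KK/HlJ, -0.83 in C57BL/6 and 0.10 in C3H/HeJ, where it was -0.25 without the sham library that stood apart and 0.47 with offsets for length and GC content. Junb had a mean log2 fold change of -0.47 (-0.15 with those offsets), with -0.93 in KK/HlJ and -0.25 in both other strains. Junb was at -0.51 in KK/HlJ and -0.41 in C3H/HeJ without the 4 libraries that stood apart, and with the offsets C3H/HeJ was at 0.29. Egr1, at -0.38, was below both sham libraries in 5 of 6 ISO day 14 libraries. Its values in C57BL/6, C3H/HeJ and KK/HlJ were -0.32, -0.38 and -0.45. Without the 4 libraries that stood apart they were -0.32, -0.75 and -0.40 (mean -0.49). With the offsets they were -0.22, -0.15 and -0.49 (mean -0.29). The values of Fos (-0.47), Jund (-0.40), Atf3 (-0.34) and Fosb (-0.33) did not reach an unadjusted p of 0.05. Fos (-0.82), Atf3 (-0.64) and Fosb (-0.47) did without the 4 libraries, with adjusted p of 0.099, 0.15 and 0.435 by edgeR, and Jund (-0.39) did not. Klf4 alone had a mean above 0, 0.31 (SE 0.353), or 0.91 without those libraries, and its strains pointed in different directions, at 1.28 in C3H/HeJ, 0.51 in C57BL/6 and -0.86 in KK/HlJ (0.61 without the 4 libraries that stood apart). None of the 10 responses at day 14 differed between strains at an unadjusted p under 0.05 (edgeR F test; 1.72% of tested genes did, and 0% were called), and DESeq2 and voom called none of the 10. With the offsets Jun alone of the 10 passed that p. Jun and Klf4 passed it by DESeq2 (unadjusted p = 0.0336 and 0.0198) and by voom (unadjusted p = 0.0119 and 0.0321). The shares of all tested genes that passed it by these methods were not counted.

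Within strains, edgeR called none of the 10 genes at day 14, where it called 0.0127% of tested genes in C3H/HeJ and 0% in both C57BL/6 and KK/HlJ. In KK/HlJ all 10 had a log2 fold change below 0 (45.4% of tested genes did), and 4 had an unadjusted p under 0.05, Ier2 (-1.43, SE 0.365, edgeR adjusted p = 0.621), Klf2 (-1.38), Jun (-1.09) and Junb (-0.93), against 1.70% of tested genes lower at that p. DESeq2 called Ier2 (adjusted p = 0.0156) and Klf2 (0.0324) there, with 0.668% of the genes it tested, and edgeR without KK/HlJ sham replicate 2 called Klf2 (0.039), while over the alternatives both ran up to 1. KK/HlJ sham replicate 1, which stood apart, held the highest level of both genes, and without it and the other 3 such libraries, which leaves 1 KK/HlJ library a group, assumed to vary like the others, the values were -0.99 for Ier2, -0.81 for Klf2 and -0.51 for Junb, and Klf2 and Junb no longer had an unadjusted p under 0.05, while Fos (-1.33) had. In C57BL/6 only Jun of the 10 had an unadjusted p under 0.05 (0.787% of tested genes were lower at that p), and in C3H/HeJ none had (3.07%). DESeq2 and voom called none of the 10 in these 2 strains. The median over the 10 genes was -0.47 in C57BL/6, -0.84 in KK/HlJ and -0.25 in C3H/HeJ, where it turned to 0.12 with offsets for length and GC content and was -0.68 without the C3H/HeJ sham library that stood apart. Both ISO day 14 libraries lay below both sham libraries for 6 of the 10 genes in KK/HlJ (10.1% of tested genes), 6 in C57BL/6 (19.1%) and 2 in C3H/HeJ (15.0%), and Klf4 lay above both in C3H/HeJ (19.0%).

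At day 21 Jund had the lowest mean log2 fold change of the 10 genes and Fos the highest. The mean log2 fold change was below 0 for 9 of 10 (47.6% of tested genes) with a median of -0.19 against 0.03 over all genes, and with offsets for length and GC content that median was 0.0015 and Jun, Egr1, Atf3 and Ier2 too lay above 0. EdgeR, DESeq2 and voom called none of the 10 (edgeR called 0.0444% of tested genes). Jund (-0.57, SE 0.232, edgeR adjusted p = 0.953) and Junb (-0.40, SE 0.188, edgeR adjusted p = 0.953) were lower at an unadjusted p under 0.05, as 2.16% of tested genes were. Klf2 (-0.42), Fosb (-0.40), Ier2 (-0.22), Klf4 (-0.17), Jun (-0.11), Egr1 (-0.08) and Atf3 (-0.01) made up the rest, and Fos alone was above 0, at 0.41 (SE 0.305). With the offsets none of the 10 had an unadjusted p under 0.05 (4.56% of tested genes had). Without the 4 libraries that stood apart, Fosb (-0.54), Jund (-0.53) and Jun (-0.41) were lower at that p (10.7% of tested genes in either direction), Fos was at -0.11, Atf3 at -0.32 and Klf4 at 0.45.

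Fos lay on different sides of sham in different strains at day 21. In C57BL/6 it stood at 1842 and 1905 CPM in sham and 1468 and 1672 CPM at day 21, a log2 fold change of -0.26. In C3H/HeJ it stood at 678.7 and 1897 CPM in sham and 3256 and 2399 CPM at day 21, which is 1.13 on the log2 fold scale (SE 0.534; edgeR adjusted p = 0.836), or 0.59 without C3H/HeJ sham replicate 1 and the other libraries that stood apart. In KK/HlJ the sham libraries themselves differed more than any ISO pair, at 983.3 and 3358 CPM, against 3364 and 2130 CPM at day 21, and its log2 fold change there went from 0.34 to -0.66 without the libraries that stood apart. Both ISO libraries were above both sham libraries only in C3H/HeJ and below both only in C57BL/6, and the test of the difference between strains gave an adjusted p of 0.913 (edgeR F test).

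Fosb and Jun stood lower than sham at day 21 in C57BL/6. Fosb stood at 4737 and 2573 CPM in C57BL/6 sham and 964.3 and 1822 CPM at day 21, which is -1.39 on the log2 fold scale (SE 0.389; edgeR adjusted p = 1). Without the filter on low counts, where 0.0802% of genes were called, its adjusted p was 0.0206, and over the alternatives it ran up to 1. In KK/HlJ Fosb stood at 2407 and 2204 CPM in sham and 2799 and 2861 CPM at day 21, and in C3H/HeJ at 1705 and 4441 CPM and then 2848 and 2899 CPM. Jun stood at 1401 and 1770 CPM in C57BL/6 sham and 650.5 and 1070 CPM at day 21, and in C3H/HeJ at 607.1 and 1108 CPM and then 1349 and 1252 CPM, a log2 fold change of 0.60 (0.24 without the sham library that stood apart). The responses of Fosb and Jun differed between strains at day 21 at an unadjusted p under 0.05 in edgeR's F test (adjusted p = 0.913 for both), as those of 4.79% of tested genes did, and without the 4 libraries that stood apart only Fosb did of the 10. EdgeR, DESeq2 and voom called none of the 10 in that test (edgeR called 0% of tested genes).

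Within strains at day 21, edgeR, DESeq2 and voom called none of the 10 in any strain, and edgeR called 0% of tested genes in C57BL/6 and C3H/HeJ and 0.0190% in KK/HlJ. C57BL/6 had 3 genes lower at an unadjusted p under 0.05, Fosb, Jun (-0.88) and Junb (-0.70), against 1.65% of tested genes. C3H/HeJ had none (5.78% of tested genes), and KK/HlJ had 1, Klf2 (-0.78; 2.16% lower), which was at -0.39 and no longer at that p without the libraries that stood apart. In C57BL/6 both day 21 libraries were below both sham libraries for 8 of 10 genes, all but Ier2 and Klf2 (20.7% of tested genes). In C3H/HeJ this held for 0 genes (16.6%), while Fos and Jun were above both (18.5%), and the median over the 10 genes was 0.03 (0.51 with offsets for length and GC content, -0.31 without the libraries that stood apart). In KK/HlJ Ier2 was below both (11.1%) and Fosb above both (14.4%). Markers of other cell types moved in the same libraries, not always in the direction of the 10 genes. In C57BL/6 the summed pericyte and smooth muscle markers stood at 6943 and 4085 CPM in sham and 2998 and 1410 CPM at day 21, with 7 of 12 lower at an unadjusted p under 0.05 (median log2 fold change -1.50). The summed endothelial markers there stood at 908.5 and 927.9 CPM in sham and 644.5 and 596.5 CPM at day 21. Of these 12, 1 was lower at that p (median -1.25). In C3H/HeJ the summed endothelial markers stood at 679.8 and 873.4 CPM in sham and 1664 and 771.9 CPM at day 21. Of these 12, 4 were higher at that p (median 1.91), as 3.32% of tested genes were. The pericyte and smooth muscle markers there had a median of -0.50, with 0 of 12 at that p. In KK/HlJ 3 of 12 endothelial markers were higher at that p (median 1.33), as 3.07% of tested genes were. The pericyte and smooth muscle markers in KK/HlJ had a median of 0.06, and the 10 genes a median of -0.21. The part of these cells in the levels of the 10 genes was not tested.

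**Figure D2:**
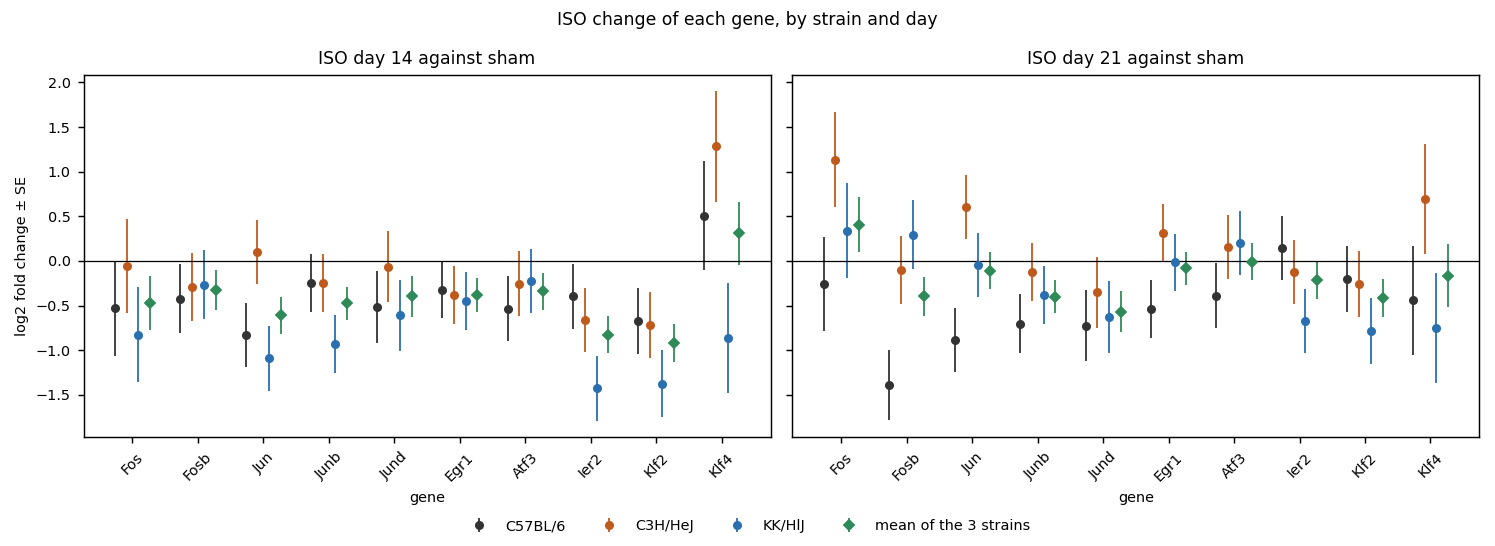
Log2 fold change of ISO against sham (vertical axis, edgeR) with its SE for each gene (horizontal axis), at day 14 (left) and day 21 (right), in each strain (circles) and as the mean of the 3 strains (diamonds). At day 14 the means of 9 genes lie below 0, with Klf2 at -0.92 and Ier2 at -0.83, and at day 21 the C57BL/6 and C3H/HeJ values of Fos, Jun and Fosb lie apart.

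Set directly against each other, day 21 was above day 14 for 4 genes at an unadjusted p under 0.05, with a mean log2 difference of 0.88 for Fos (SE 0.307), 0.61 for Ier2 (SE 0.208), 0.51 for Klf2 and 0.50 for Jun. Each had an edgeR adjusted p of 1. Of all tested genes, 0.876% were higher at an unadjusted p under 0.05 and 0% were called. The test without the filter on low counts called Fos (adjusted p = 0.0131; 0.0305% of genes), and values over the alternatives ran up to 1. DESeq2 and voom called none of the 10. The median difference over the 10 genes was 0.31 against 0.01 over all tested genes, and 0.29 both with offsets for length and GC content and without the 4 libraries that stood apart. This contrast uses no sham library. Fos stood at 1106 and 1490 CPM at day 14 against 1468 and 1672 CPM at day 21 in C57BL/6, 809 and 1667 against 3256 and 2399 CPM in C3H/HeJ, and 1094 and 1354 against 3364 and 2130 CPM in KK/HlJ. The libraries of the 2 days overlapped in C57BL/6 and not in the other 2 strains. How many of all tested genes kept the 2 days apart in this way was not counted.

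Over both days together, 4 genes were lower at an unadjusted p under 0.05, Klf2 (-0.67, SE 0.180, edgeR adjusted p = 0.278), Ier2 (-0.52), Junb (-0.44) and Jund (-0.48), against 3.48% of tested genes. EdgeR called none of the 10 (0.0571% of tested genes) and voom none. DESeq2 called Klf2 (adjusted p = 0.0424; 0.763% of its genes), and so did edgeR without the filter on low counts (0.370% of genes), with adjusted p from 0.0247 to 0.773 over the alternatives. Fos was at -0.03 and Klf4 at 0.07. With offsets for length and GC content, Klf2 alone (-0.37) was lower at an unadjusted p under 0.05 (5.86% of tested genes), with Ier2 at -0.20, Jund at -0.17, Junb at -0.13 and a median over the 10 of -0.15 in place of -0.36. Without the 4 libraries that stood apart, 9 genes were lower and Klf4 higher at that p (12.9% of tested genes in either direction), with Fos at -0.46, Klf4 at 0.68 and none called. In sham libraries alone, edgeR's test between strains called none of the 10 (0.171% of tested genes), DESeq2 and voom none. Klf4 alone of the 10 had an unadjusted p under 0.05 (4.89% of tested genes; edgeR adjusted p = 0.878), with 527.9 and 693.8 CPM in C57BL/6, 233.5 and 156.3 CPM in C3H/HeJ and 1087 and 372.3 CPM in KK/HlJ. With offsets for length and GC content it did not pass that p, while Jun, Klf2, Atf3 and Junb did. Without the filter on low counts, where 0.535% of genes were called, its adjusted p was 0.000335, and over the alternatives it ran up to 1. For Klf4 the C3H/HeJ sham libraries were the lowest of the 6 and overlapped with neither other strain. How many of all tested genes set 1 strain apart in this way was not counted.

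The genes also varied together from library to library. Over the 45 pairs of the 10 genes, the mean Pearson correlation of log2 CPM over 18 libraries was 0.396, against 0.030 over all pairs of tested genes and 0.032 over pairs of genes above 100 CPM. It was 0.354 on deviations from the group means, which removes strain and treatment, 0.376 without the 4 libraries that stood apart, and 0.514, 0.347 and 0.417 within C57BL/6, C3H/HeJ and KK/HlJ. Adjusting log2 CPM for gene length and GC content raised it to 0.546. Of the 45 pairs, 40 had a positive correlation, and 16 passed a permutation test (100000 resamples, two-sided, Benjamini-Hochberg adjusted over the 45 pairs at 0.05), all of them positive. That test permuted all 18 libraries without regard to group, so differences between strains and treatments count toward these calls. By Spearman's rho 14 of the 16 passed too. When the 2 libraries farthest from the median of one gene were left out, r of the 16 pairs stayed at 0.281 or above, the lowest being Fosb with Jund. On deviations from the group means, an exact permutation test that swaps the 2 libraries within groups gave no pair an adjusted p under 0.05. The smallest unadjusted p in that test was 0.00781, for Fos with Egr1, Jund with Klf2 and Ier2 with Klf2. These swaps can give no p under 0.0039, so 1 pair alone could not have passed after adjustment over the 45 pairs.

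Ier2 and Klf2 were the closest pair, with r = 0.892 over 18 libraries (permutation p = 1e-05, the smallest these permutations can give, adjusted p = 0.00045) and rho = 0.882 (adjusted p = 0.00045). Without the 2 libraries farthest from the median, r was 0.813. On deviations from the group means r was 0.857 (exact permutation p = 0.00781, adjusted p = 0.117), and r was 0.833, 0.92 and 0.963 within C57BL/6, C3H/HeJ and KK/HlJ. After adjustment for length and GC content it was 0.86. Junb correlated with Jund at 0.768 and with Klf2 at 0.737, Fosb with Egr1 at 0.739, Jun with Egr1 at 0.731 and with Fos at 0.722, and Fos with Egr1 at 0.719, with adjusted permutation p from 0.0054 to 0.00579.

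On these values the genes can be described as 2 sets, which were formed after the correlations were seen and carry no test. Fos, Jun, Egr1 and Atf3 had a mean r of 0.66 over their 6 pairs. Junb, Jund, Ier2 and Klf2 had a mean r of 0.714, and 0.829 on deviations from the group means, where Jund and Klf2 reached 0.933. Between the 2 sets the mean r of 16 pairs was 0.36, or 0.243 on those deviations, and Fos with Jund was at -0.172. The mean r was 0.593 and 0.64 within the sets and 0.51 between them when the 4 libraries that stood apart were left out. Fosb correlated with both, at a mean of 0.527 with the first set and 0.436 with the second. Klf4 followed neither, with a mean r of -0.003 with the 9 other genes. Over 18 libraries the sets differed most in KK/HlJ sham replicate 1, where the mean standardized level (log2 CPM minus its mean, divided by its SD over 18 libraries) was -0.42 for the Fos set and 1.98 for the Junb set. Both sets were low together in KK/HlJ ISO day 14 replicate 1 (-1.13 and -1.16) and high together in both C57BL/6 sham libraries (0.73 to 0.91).

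**Figure D3:**
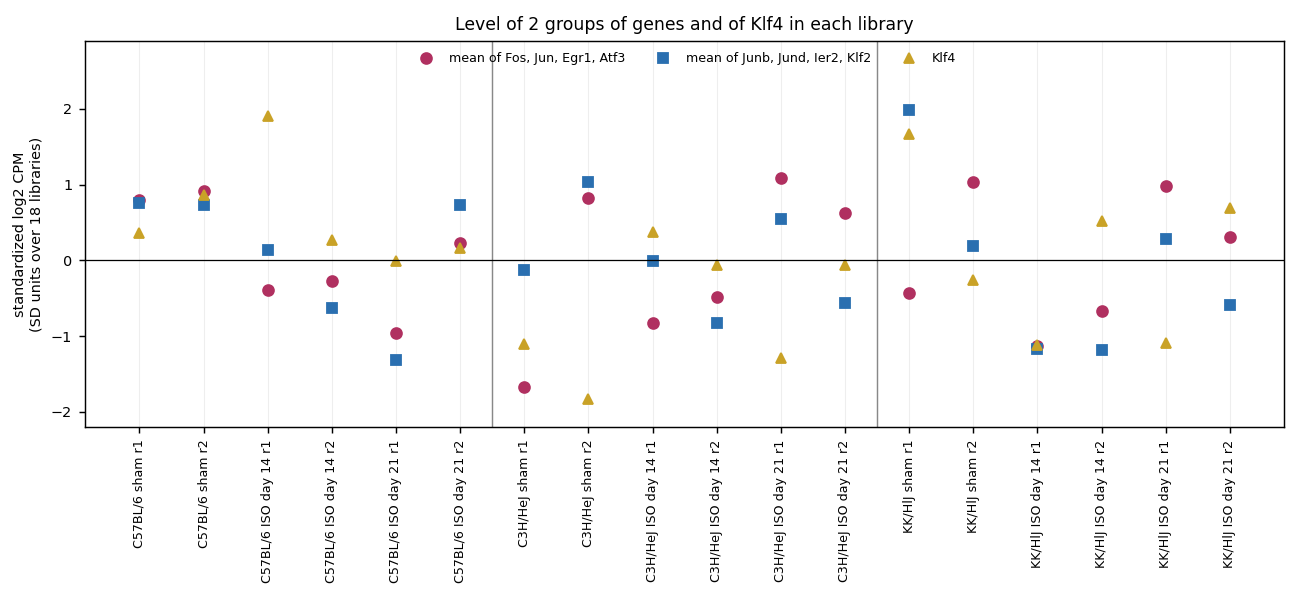
Standardized level (vertical axis, SD units over 18 libraries) of the mean of Fos, Jun, Egr1 and Atf3 (circles), the mean of Junb, Jund, Ier2 and Klf2 (squares) and Klf4 (triangles) in each library (horizontal axis), with strains separated by lines. The 2 sets lie farthest apart in KK/HlJ sham replicate 1, at -0.42 and 1.98, and Klf4 is highest in C57BL/6 ISO day 14 replicate 1, at 1.90.

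**Figure D4:**
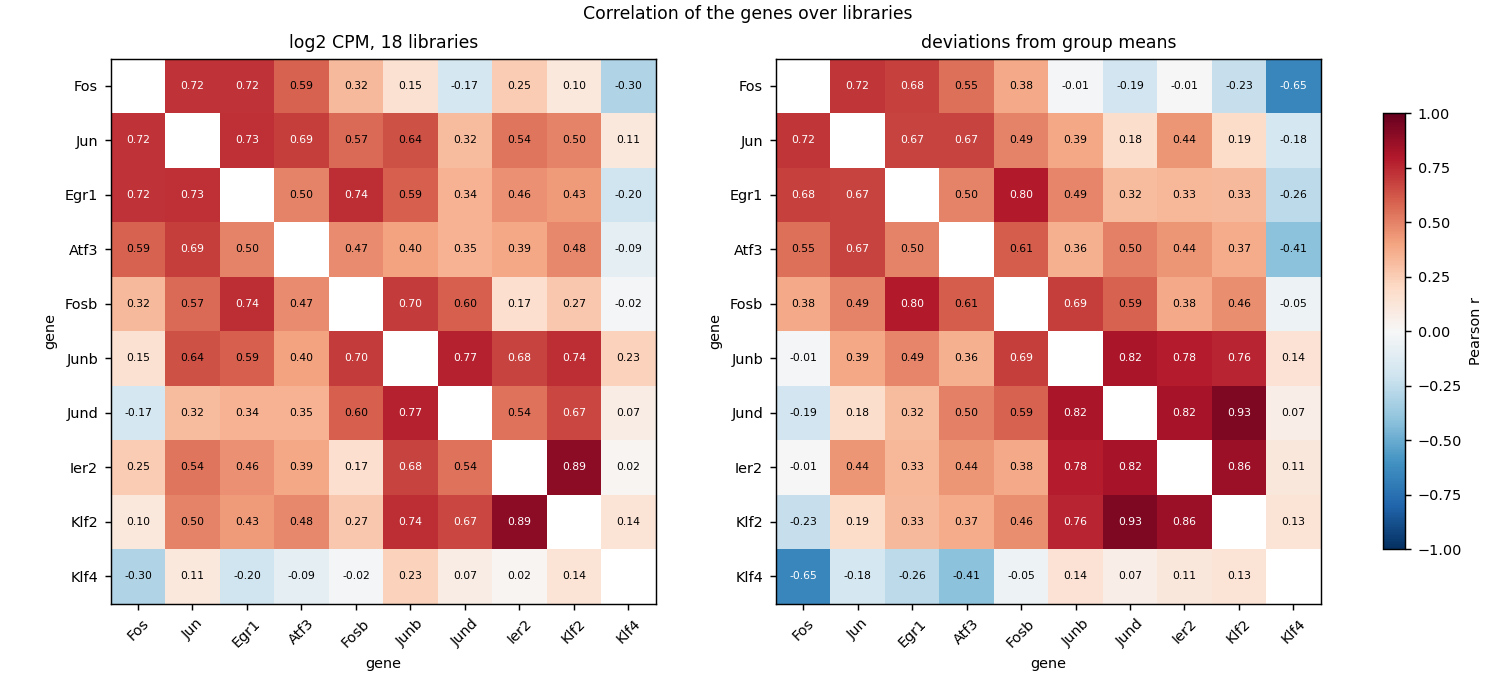
Pearson correlation of each pair of genes (rows and columns) over 18 libraries, on log2 CPM (left) and on deviations from the group means (right), on a colour scale from -1 to 1. Ier2 with Klf2 reaches 0.89 on the left, Jund with Klf2 0.93 on the right, and the Klf4 row on the left runs from -0.30 to 0.23.

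The second set shares properties other than its levels. Junb, Jund, Ier2 and Klf2 all lie on chromosome 8 (mm10), Junb at 84974484 to 84978718 and Ier2 at 84661331 to 84662852 on the minus strand, Jund at 70698949 to 70700616 and Klf2 at 72319033 to 72321656 on the plus strand. Their transcripts have 60.91% to 67.15% GC, above at least 97.01% of tested genes (median 49.83%), and a longest form of 1522 to 1847 bases against a median of 3194. Jun, Junb, Jund and Ier2 are annotated with 1 exon. The other genes lie at 85473890 to 85477273 on chromosome 12 (Fos), 19302696 to 19310051 on chromosome 7 (Fosb), 95049034 to 95052222 and 55527143 to 55532466 on chromosome 4 (Jun and Klf4), 34859823 to 34864984 on chromosome 18 (Egr1) and 191170296 to 191218039 on chromosome 1 (Atf3), and all 10 are protein coding. The GC content of these 6 ran from 51.9% to 57.31%. With log2 CPM adjusted for length and GC content, the second set kept a mean r of 0.703 and the first 0.638, while the mean between them went from 0.36 to 0.59 and that of Klf4 with the 9 others from -0.003 to 0.318. Without a stated strand setting, reads of Junb and of the overlapping Prdx2, a peroxiredoxin gene with 50967 counts in all libraries together, cannot be told apart where the genes overlap, and likewise Jun with Junos (413 counts) and Jund with Gm11175 (3625 counts).

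Klf4 varied with the summed level of a list of heat shock and stress genes, but not with each of them. Across 70 relations of the 10 genes with 7 properties of the libraries, 1 passed at an adjusted p under 0.05, Klf4 with the summed level of 16 heat shock and stress genes, at r = 0.732 over 18 libraries (permutation p = 0.00048, adjusted p = 0.0336) and rho = 0.728 (adjusted p = 0.0588). Without the 2 libraries farthest from the median, r was 0.73. It was 0.651 on deviations from the group means, 0.742 without the 4 libraries that stood apart, and 0.392, 0.737 and 0.921 within C57BL/6, C3H/HeJ and KK/HlJ. Among the 16 genes, Klf4 had its highest r with Hspa5, the chaperone of the endoplasmic reticulum (0.719; 272.3 to 2745 CPM), and Hsp90ab1, a cytosolic chaperone (0.677; 682.4 to 1632 CPM). These are the most abundant of the 16 by median and weigh most in the sum. Dnajb1 (296.5 to 539.5 CPM) was at r = -0.201, Ubb (179.8 to 616.6 CPM) at 0.041, Hspb1 at 0.072 and Hspe1 at 0.058. The inducible Hspa1a and Hspa1b were low, at 20.69 to 71.26 and 2.36 to 35.6 CPM, and correlated with Klf4 at 0.516 and 0.269. Fos and Egr1 had values of the opposite sign with the summed heat shock genes (r = -0.461 and -0.538, adjusted permutation p = 0.262 and 0.174).

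**Figure D5:**
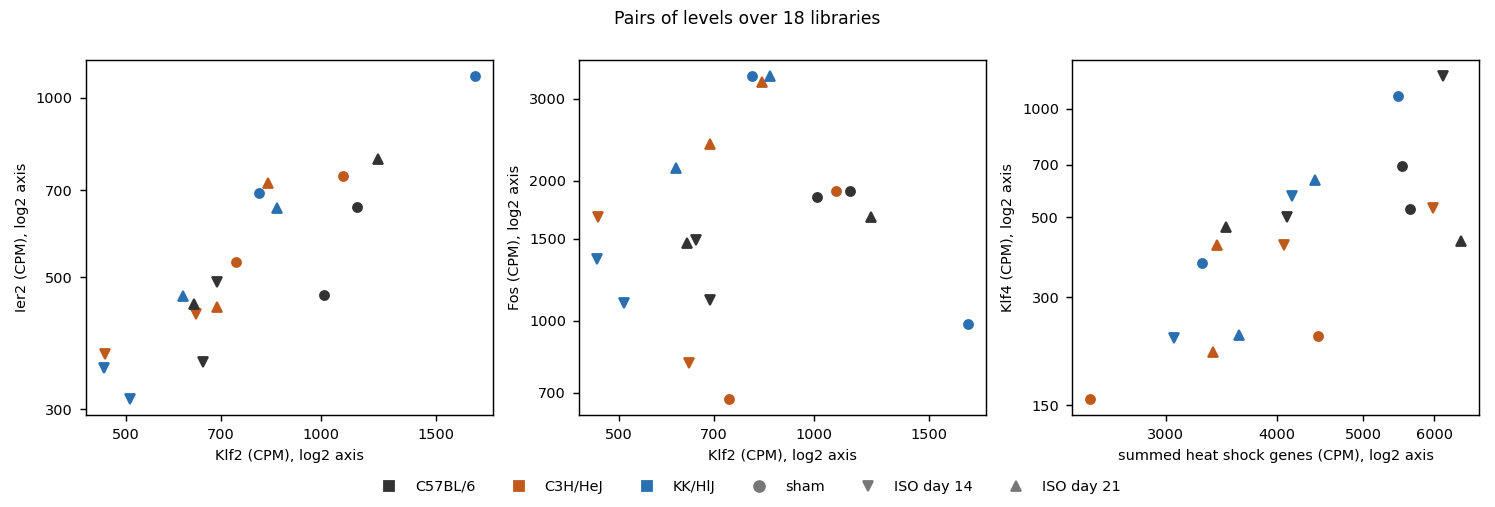
Levels in CPM on log2 axes over 18 libraries, with Ier2 against Klf2 (left), Fos against Klf2 (middle) and Klf4 against the sum of 16 heat shock and stress genes (right), with colours for strains and symbols for sham, ISO day 14 and ISO day 21. The points rise together on the left (r = 0.892) and on the right (r = 0.732) and show no such course in the middle (r = 0.105).

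The remaining properties gave no relation at an adjusted p under 0.05. The largest were Fos with the summed endothelial markers (r = 0.594, adjusted permutation p = 0.171), Klf4 with the same sum (r = -0.577, adjusted p = 0.171), and Egr1 (0.576) and Klf4 (-0.575) with the tilt of a library toward GC-rich genes, its fitted offset for GC-rich minus GC-poor genes (both adjusted p = 0.171). Depth, measured as log2 of the total counts, had its highest r with Jun (0.43, adjusted permutation p = 0.312) and its lowest with Fos (0.00029).

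The genes most like the mean of the 10, ranked by Pearson r over 18 libraries among 9779 genes with a mean of at least 5 CPM, were Dtx3 (0.853), Smoc2 (0.853), Dtx4 (0.806), Socs3 (0.801), Khsrp (0.793), Slc27a1 (0.769), Pex5 (0.749), Zfp513 (0.744), Tmem35a (0.731) and Rad52 (0.730). Socs3, an inducible inhibitor of cytokine signalling, is the only one of these on the lists of early-response genes used here. Smoc2, a secreted matricellular protein, ran from 1406 to 3064 CPM. These values are descriptions, since the genes were taken for their rank. Of 37 other early-response genes, 32 had a positive r with that mean, with a median of 0.29. Over all tested genes the median was 0.05, and 8911 of 15762 had a positive r. The heat shock and stress genes had a median r of 0.0001 (8 of 16 positive), the other EGR, KLF, NR4A and IER genes 0.11 (11 of 18), the other AP-1 and small Maf subunits 0.152 (9 of 13), and the upstream kinases and factors 0.188 (13 of 20).

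The wider pathway was tested in the same fit. With both ISO days against sham, edgeR called 0 of 13 other AP-1 and small Maf subunits, 0 of 18 tested EGR, KLF, NR4A and IER genes, 0 of 37 other early-response genes, 0 of 20 upstream regulators and 0 of 16 heat shock and stress genes, against 0.0571% of all tested genes. At an unadjusted p under 0.05 the counts were 0, 1 higher, 1 higher and 4 lower, 1 higher and 1 lower, and 2 higher, in that order, against 6.69% of tested genes. Median log2 fold changes were -0.11, 0.10, -0.07, 0.02 and -0.03, against 0.03 over all tested genes. The early-response genes with the smallest p were Rhob, a small GTPase (-0.62, SE 0.152; edgeR adjusted p = 0.167), Arc (-1.12, SE 0.363), Irf1, an interferon-responsive factor (-0.49), and Gadd45g, a stress sensor (-0.53). Klf3, a repressor of the same family as Klf2, had 0.68 (SE 0.221; edgeR adjusted p = 0.464). Hsph1, a cochaperone of Hsp70, had 1.36 (SE 0.277; edgeR adjusted p = 0.0807), and Dnajb4, another cochaperone, 0.66. Among the upstream genes, Atf1, a relative of Creb1, had 2.13 (SE 0.83) at levels from 0 to 28.39 CPM, Map2k2, a kinase that activates ERK, -0.44 (SE 0.204), Srf, the serum response factor, -0.37 (SE 0.208) and Mrtfb, a cofactor of Srf, 0.67 (SE 0.398). Maff, a small Maf protein, had 0.34 (SE 0.201), with 0.65 at day 14, and Mafk -0.17 (SE 0.208). Among the marker lists, edgeR called none either, and at an unadjusted p under 0.05 it placed 4 of 12 fibroblast genes higher, 2 of 12 endothelial genes higher and 1 lower, 2 of 12 pericyte and smooth muscle genes lower, 2 of 10 Schwann cell genes lower, 1 of 8 epicardial genes lower and 1 of 10 tested macrophage genes higher (median log2 fold change 1.67). None of 12 cardiomyocyte genes and 5 tested lymphocyte genes passed that p.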

How the data were processed

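Total RNA of Thy1+ cells sorted from mouse hearts was sequenced as stranded mRNA libraries of single 50-nt reads (18 libraries, 9 groups of 2). Per the submitters' processing notes, FastQC, STAR 2.5.3a and edgeR were used with genome build mm10, which derives from C57BL/6, so reads of all strains were set against 1 genome. The deposited values are the authors' read counts per Ensembl gene, not normalized, and the counter, its strand setting and the annotation release were not given in the sources used here. GENCODE M21 gave symbols and mm10 positions for 53237 of 53342 identifiers, and the 105 others held 0.00159% of counts.

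Counts were tested with edgeR 4.0.16 (R 4.3.3; TMM scaling, filterByExpr over the 9 groups, robust quasi-likelihood fit of all groups, 15762 genes, 9 residual degrees of freedom), with Benjamini-Hochberg adjustment over all tested genes and a threshold of 0.05. CPM use TMM library sizes, and correlations use log2 CPM with a prior count of 2. Correlations over 18 libraries were tested with 100000 permutations made without regard to group, and deviations from group means with all 512 swaps. The alternatives were DESeq2 1.42.0, limma 3.58.1 voom with quality weights, RLE scaling, no filter, offsets for length and GC content, a replicate block, fits of the compared groups alone, and fits without each library or without the 4 that stood apart. The scripts were tested on simulated data.

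All 10 genes are reported in every comparison. Of each other list, up to 4 genes with the smallest unadjusted p over both ISO days are named, and the 10 genes most like the mean of the 10 by Pearson r among those with a mean of at least 5 CPM and an assigned name. Members and lists were chosen with earlier results of these data known.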

Additional observations from a re-analysis of the deposited data

Results flagged for a closer look

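In 3 genes at day 21 the strains lay on opposite sides of their sham libraries. For Fos, both ISO day 21 libraries were above both sham libraries in C3H/HeJ and below both in C57BL/6, and the edgeR F test of the difference between strains gave an unadjusted p of 0.211. For Fosb, both were above sham in KK/HlJ and below sham in C57BL/6, with an unadjusted p of 0.0135 in the same edgeR test. For Jun, both were above sham in C3H/HeJ and below sham in C57BL/6, with an unadjusted p of 0.0266 by edgeR. The adjusted p was 0.913 for each of the 3 genes.

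In KK/HlJ, Fosb was below both sham libraries at day 14 and above both at day 21. Its log2 fold change was 0.56 higher at day 21 than at day 14, and this difference was not tested within the strain.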

How the results depend on the processing

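None of the 10 genes was called in any of 13 comparisons, and this held under limma voom, RLE scaling, offsets for length and GC content, fits of the compared groups alone and fits without the 4 libraries that stood apart. At day 14 over the 3 strains, DESeq2 called 2 (Klf2 and Ier2), the test without a filter on low counts 2, and fits without 1 library 0 to 1. For both days DESeq2 called 1, no filter 1 and fits without 1 library 0 to 1. Without the filter, 1 was called between the days (Fos), 1 at day 21 in C57BL/6 (Fosb) and 1 between sham libraries (Klf4). At day 14 in KK/HlJ DESeq2 called 2, and fits without 1 library 0 to 1. The gene called in each fit that left out 1 library was Klf2, without KK/HlJ sham replicate 2. Counts of all called genes moved further: at day 14 from 6 to between 3 and 234 without 1 library and 2 and 94 otherwise, at day 21 from 7 to 2 to 60 and 2 to 78, for both days from 9 to 2 to 109 and 10 to 141, between days from 0 to 0 to 215 and 0 to 8, and at day 14 in KK/HlJ from 0 to 1 to 477 and 0 to 93. The mean r over the 45 pairs was 0.396, ran from 0.366 to 0.421 without 1 library, and was 0.546 with adjustment for length and GC content and 0.514 within C57BL/6. A replicate block called 0 of the 10 in every comparison, with 15 genes in all for both days. The main fit did not pair libraries by replicate number. Same-numbered deviations correlated at -0.144 to 0.163 over 36 pairs of groups (median -0.00967, over 0.1 in 9). All 4 libraries that stood apart were replicate 1, and a batch shared by only some libraries was not tested. The causes of the differences between settings were not tested. Each group had 2 libraries, and none of the 10 genes had fewer than 1781 reads in any library.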
